A study of Mus musculus with 9 samples.

Results

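The comparison described here is that of primary mouse microglia treated with Chd8 siRNA against primary microglia treated with control siRNA. Its members are 6 of the 9 RNA-seq libraries of the series, 3 libraries of each siRNA with the replicate numbers 1, 2 and 3, chosen by the siRNA and the number in the sample titles. The other 3 libraries are of Tsc2 siRNA, and they were used in the fit and for the difference between both knockdowns. All animals were of the C57BL/6J strain. In the control group the cells received a negative control siRNA, and in the knockdown group an siRNA against Chd8, both by lipid transfection, and RNA was taken after 3 days. Microglia were shaken off mixed glial cultures of embryonic brains, and the methods describe biological replicates as cultures from separate brains. The results text of the study places LPS, the bacterial lipopolysaccharide that activates microglia, before the RNA-seq, whereas its methods for RNA-seq and the sample labels name the siRNA alone. The knockdown was transient and was not restricted to one cell type within the culture. Because the libraries are of bulk RNA, fewer cells of a type and less RNA per cell cannot be told apart.

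CHD8 is a chromodomain helicase, an enzyme that moves nucleosomes with energy from ATP and sits at the promoters of active genes. It is known as a repressor of beta-catenin and p53 target genes, and loss of 1 copy is among the best established genetic causes of autism. Microglia are the resident macrophages of the brain. They sense bacterial products through Toll-like receptors, answer with cytokines, chemokines and type I interferon, take up dead cells and myelin debris, and secrete factors that act on neural precursors and oligodendrocytes.

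The 9 libraries held between 16913448 and 33213801 counts, and levels are given in CPM, the counts scaled to a common library size after TMM scaling. Of 54119 genes, 16273 passed the filter on low counts and were tested. The 17 microglial markers tested summed to between 6457 and 8772 CPM in every library, with Ctss, Csf1r and the C1q genes all high. Before TMM scaling, Tmem119 reached at most 1.13 CPM and P2ry12 at most 2.80 CPM, so both defining genes of resting microglia were near 0 in these cultures. Libraries with the same replicate number resembled each other. Deviations from the group mean correlated over genes at 0.521, 0.244 and 0.417 between the control and Chd8 siRNA libraries of numbers 1, 2 and 3, whereas they reached at most 0.036 between libraries of different numbers. The 3 deviations of a group sum to 0, so positive values within a number lower those between numbers. The low values between numbers are thus no separate evidence of pairing. Xist, the RNA of the inactive X chromosome, lay between 469 and 507 CPM in the 3 libraries of number 1 and between 142 and 200 CPM in the other 6. Each Chd8 siRNA library was therefore set against the control library of the same number by a replicate block.

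Chd8 itself was lower in all 3 knockdown libraries. Its level was 118, 97.4 and 93.6 CPM in the control libraries 1, 2 and 3, and 86.8, 44.5 and 38.3 CPM in the Chd8 siRNA libraries. The groups did not overlap, and the remaining level was 73.7% of the control at number 1, 45.7% at number 2 and 40.9% at number 3. The knockdown at number 1 was thus the weakest. The log2 fold change was -0.93 ± 0.14 (SE, n = 3 libraries per siRNA, edgeR's quasi-likelihood test, FDR 0.00777), and an exact permutation test gave p = 0.1, the smallest value that 3 libraries against 3 allow. Chd8 did not pass the threshold without control library 2 (FDR 0.0586), control library 3 (FDR 0.0795) or Chd8 siRNA library 2 (FDR 0.0821), although its log2 fold change stayed at -0.85, -0.88 and -0.86. With Tsc2 siRNA its level was like that of the controls (log2 fold change 0.00), and the difference between both knockdowns was -0.93 (FDR 0.016). Chd8 (ENSMUSG00000053754.14) lies at chr14:52198151-52257780 on the minus strand of GRCm38, which is mm10.

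The other members of the CHD family did not pass by edgeR, and DESeq2 found 2 of the 9 tested lower at an FDR of 0.05, with Chd8 counted. Chd3, a subunit of the NuRD deacetylase complex, was 33.6, 26.2 and 23 CPM in the controls and 22.9, 19.7 and 15.0 CPM with Chd8 siRNA (log2 fold change -0.52, FDR 0.105). Its groups did not overlap. Chd7, the closest relative that binds enhancers, was 139, 114 and 124 CPM against 137, 139 and 139 CPM (FDR 0.515), and its groups overlapped.

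With Chd8 siRNA, 87 of 16273 genes (0.535%) changed by more than 1.5-fold with an FDR under 0.05. Of these, 40 genes (0.246%) were higher and 47 (0.289%) lower, with a median size of 0.866 on the log2 scale. Tests were edgeR's where no other tool is named. At an unadjusted p under 0.05, 1095 genes (6.73%) were higher and 996 (6.12%) lower. At any fold, 102 genes were higher (0.627%) and 67 lower (0.412%) at an FDR of 0.05, against 379 and 186 by DESeq2 and 186 and 118 by limma-voom. The change had one sign at all 3 replicate numbers in 84 of the 87 genes, and in 40 of them the groups did not overlap, which over all genes tested was the case for 9.09%. Over all genes tested, 17.7% were higher and 18.3% lower at all 3 numbers. The p-values measure only the spread between these libraries.

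The calls depended on the replicate block and on single libraries. DESeq2 also called 78 of the 87 genes, limma-voom 80, and both 76. Without the replicate block, edgeR called 0 genes, 622 genes were at an unadjusted p under 0.05, and the lowest FDR was 0.943. When libraries were left out one at a time, the count fell to 20 without control library 3, 29 without control library 2, 25 without Chd8 siRNA library 2 and 29 without Chd8 siRNA library 3, and was 81 without control library 1 and 68 without Chd8 siRNA library 1. The 12 genes that were called in all 6 of these fits were Cd5l, Serpinb6b, Ets1, Srp14, Chmp2a, Gabpa, Ifi27l2a, Ahsa1, Srxn1, Neat1, Slc7a11 and the pseudogene Gm4294. Of these, Cd5l, Chmp2a, Slc7a11 and Gm4294 were called as well without any one replicate number.

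**Figure D1:**
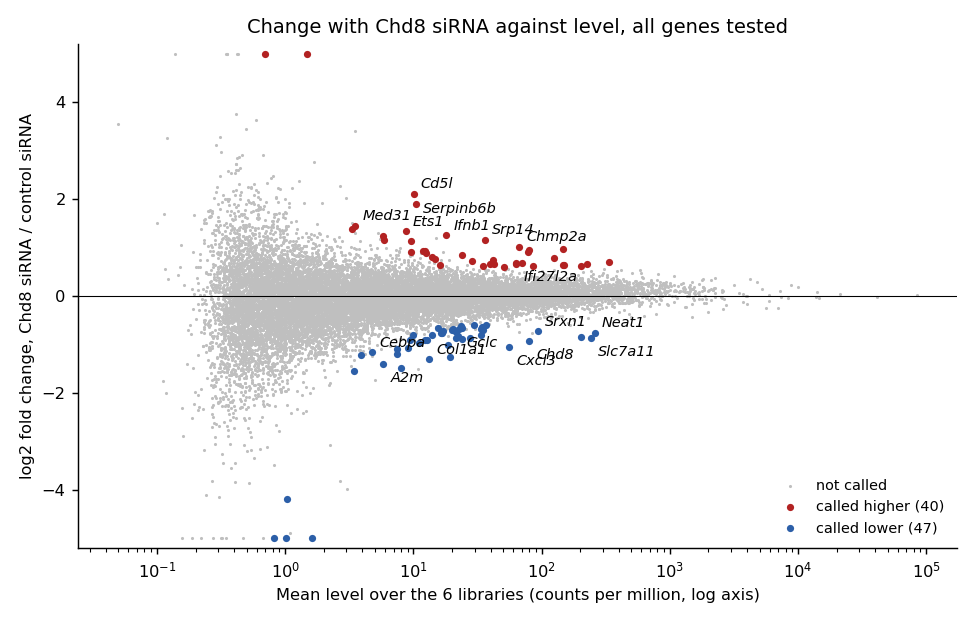
Log2 fold change of each of the 16273 genes tested (y axis) against its mean level over the 6 libraries of control and Chd8 siRNA (x axis, CPM, log axis), with the 40 genes called higher in red and the 47 called lower in blue. Genes beyond 5 on the y axis are drawn at its edge, 5 called genes among them, and the spread of the uncalled genes is widest at low levels.

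The changes resembled each other between replicate numbers mainly at well measured genes. Across all 16273 genes, the log2 differences at numbers 1 and 2 correlated at 0.05, those at 1 and 3 at 0.085 and those at 2 and 3 at 0.089. Across the 6149 genes with a mean of at least 10 CPM the values were 0.227, 0.374 and 0.385, and across the 1556 genes of at least 100 CPM they were 0.442, 0.453 and 0.648. These correlations are across genes, which are not independent replicates, and each number has its own control library. The share of genes that were higher at all 3 numbers rose with the level, from 9.63% of genes under 1 CPM to 52.2% of those of 300 CPM and over, and the median log2 fold change went from -0.16 to 0.09. In the Tsc2 siRNA libraries the medians of the same bins were -0.18 and 0.05, so abundant genes leaned upwards with both siRNAs against the shared controls. Several lists of abundant genes are therefore set below against genes of at least 10 CPM, of which 27.8% were higher and 18% lower at all 3 numbers, or against a bin of like level. Other lists are set against all genes tested.

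**Figure D2:**
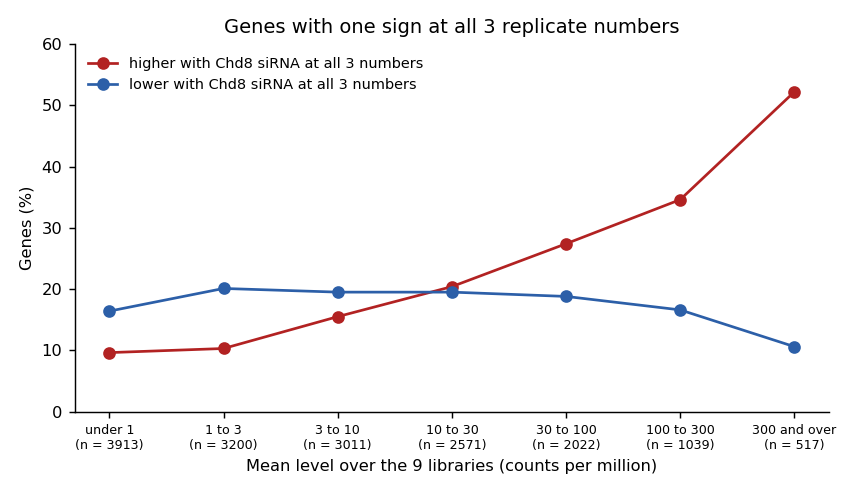
Share of genes in percent that were higher (red) or lower (blue) with Chd8 siRNA at all 3 replicate numbers, by mean level over the 9 libraries in CPM, with the number of genes under each bin. The red line climbs from 9.63% to 52.2% while the blue line ends at 10.6%.

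Among the genes that rose, Cd5l rose most of those detected in every library. Cd5l, a secreted protein of macrophages that is induced by liver X receptors and protects them from apoptosis, was 4.90, 3.88 and 2.62 CPM in the controls and 17.4, 18.5 and 13 CPM with Chd8 siRNA. All 3 knockdown libraries were above all 3 controls, by 2.11 ± 0.27 on the log2 scale (FDR 0.00318), a fold of 4.32. It was also higher with Tsc2 siRNA (1.64), and the knockdowns did not differ in the test (FDR 0.53). Serpinb6b, an intracellular inhibitor of serine proteases, was 2.72, 9.54 and 1.89 CPM against 7.77, 26.5 and 13.9 CPM. It was higher at each number though the groups overlapped, with a log2 fold change of 1.89 ± 0.25 (FDR 0.00343), and it exceeded its level with Tsc2 siRNA by 1.37 (FDR 0.025).

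Transcription factors of the ETS family were among the genes that rose. Ets1, a factor of lymphoid and endothelial cells that is also found in macrophages, was 2.00, 5.73 and 7.59 CPM in the controls and 6.06, 14.1 and 16.7 CPM with Chd8 siRNA (1.33 ± 0.19, FDR 0.00472). Gabpa, the DNA-binding subunit of GABP, which drives nuclear genes of the respiratory chain, was 51.2, 59.3 and 52.0 CPM against 81.7, 101 and 138 CPM. The Gabpa groups lay apart (0.95 ± 0.12, FDR 0.00343), and its level with Tsc2 siRNA was that of the controls (0.02), a difference between the knockdowns of 0.93 (FDR 0.0064). The other 16 ETS genes tested, of 18, did not pass by edgeR, and among the 18 DESeq2 found 2 higher and 1 lower at an FDR of 0.05. Outside the family, the AP-1 repressor Jdp2 rose from 32.5, 181 and 118 CPM to 46.1, 317 and 181 CPM (0.64, FDR 0.00435), again with a difference from Tsc2 siRNA (0.55, FDR 0.019).

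Chmp2a, Srp14 and Ahsa1 rose with no overlap between groups. Chmp2a, a subunit of the ESCRT-III filament that cuts membranes in endosomes, autophagosomes and dividing cells, was 33.4, 56.0 and 43.2 CPM in the controls and 65.8, 113 and 90.0 CPM with Chd8 siRNA. This was the lowest FDR of all genes that rose (1.02 ± 0.10, FDR 0.000974). Tsc2 siRNA left it at 0.15, and the difference between the knockdowns was 0.86 (FDR 0.0037). Srp14, which binds the Alu domain of the signal recognition particle RNA, was 25.9, 24.3 and 16.2 CPM against 39.3, 56.4 and 53 CPM (1.17 ± 0.16, FDR 0.00435). It also lay at 0.88 with Tsc2 siRNA, and the knockdowns did not differ in the test (FDR 0.56). Ahsa1, an activator of the chaperone HSP90, was 56.4, 62.6 and 42.6 CPM against 83.2, 103 and 71.1 CPM (0.67, FDR 0.00343).

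**Figure D3:**
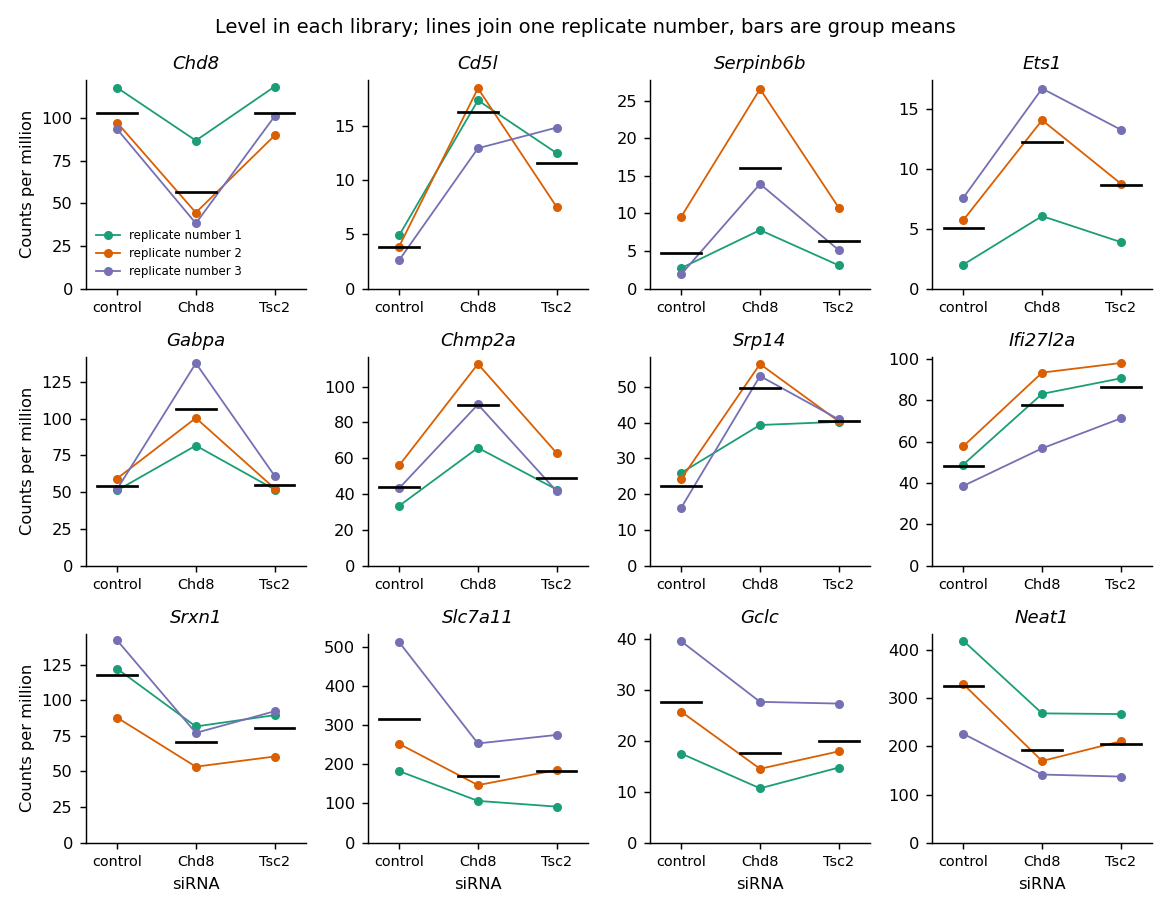
Level in CPM (y axis, from 0) of 12 genes in each of the 9 libraries by siRNA (x axis), with lines joining libraries of one replicate number and black bars at the mean of 3 libraries. Chd8 is lowest under Chd8 siRNA at each number, Gabpa and Chmp2a peak under Chd8 siRNA alone, and Srxn1, Slc7a11, Gclc and Neat1 lie below the control with both siRNAs.

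Several genes that rose were of low level. Med31, a subunit of Mediator, lay between 1.06 and 2.59 CPM in the controls and between 2.71 and 8.04 CPM with Chd8 siRNA (1.45, FDR 0.0286). Nat2, an arylamine N-acetyltransferase, rose by 1.39 (FDR 0.0456), Kctd21 by 1.15 (FDR 0.0314), the lincRNA Gm48422 by 1.25 (FDR 0.0446) and the cytokine signalling inhibitor Cish from 4.34, 5.42 and 8.19 CPM to 8.98, 17.9 and 13.1 CPM (FDR 0.0189). These 5 genes kept their call in 0 to 2 of the 6 fits without one library. Gemin4, a component of the SMN complex that assembles spliceosomal particles, was listed at 0 in all 3 controls and at 1.00, 1.08 and 2.10 CPM with Chd8 siRNA, at least 9.81-fold higher against 3 counts per control library, and was present in 2 of the 3 Tsc2 siRNA libraries. Estimated counts that appear or vanish in this way can follow from how reads were divided among similar transcripts, so that Gemin4 and the other 4 called genes with at most 3 counts in every library of 1 group (Gm4294, Gm47924, Gm340 and 1 of the gene models named Nnt) are uncertain.

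The genes that fell most included matrix genes, regulators of small GTPases and transcription factors. Ralgps1, an activator of Ral GTPases, was 6.11, 2.65 and 6.61 CPM in the controls and 2.71, 1.47 and 1.15 CPM with Chd8 siRNA (-1.56 ± 0.35, FDR 0.0481). Arhgap4, a GTPase-activating protein of blood cells, was 19.6, 6.03 and 8.45 CPM against 9.85, 2.68 and 1.40 CPM (-1.48 ± 0.28, FDR 0.02). Both were lower at each number with overlapping groups. Gpaa1, a subunit of the transamidase that attaches GPI anchors, fell by 1.22 (FDR 0.0499) and Fam102a by 1.10 (FDR 0.0153). Ralgps1 and Gpaa1 kept their call in 0 of the 6 fits without one library, Fam102a in 1 and Arhgap4 in 2. The unnamed gene models Gm49673 and Gm37498 fell by 4.19 (FDR 0.0231) and 1.19 (FDR 0.0201), the first of them from 2.00, 1.72 and 2.10 CPM to at most 0.301 CPM. Each kept its call in 1 of the 6 fits, and Gm49673 was not called by limma-voom and had no adjusted p from DESeq2.

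Cebpa and Rara were transcription factors that fell. Cebpa, the factor that commits progenitors to the myeloid lineage, was 5.35, 6.47 and 7.98 CPM in the controls and 2.95, 2.74 and 2.96 CPM with Chd8 siRNA (-1.16 ± 0.25, FDR 0.0405). Rara, the alpha receptor of retinoic acid, was 15.4, 11.0 and 10.6 CPM against 6.77, 5.04 and 5.80 CPM (-1.07 ± 0.19, FDR 0.0149). In both genes every knockdown library was below every control, but neither kept its call in any fit without one library. Spi1, Irf8 and the other microglial lineage factors of the list, 18 of 19 tested, did not pass by edgeR, and the median of the 19 was 0.02. Among the 19, DESeq2 found 2 higher and 2 lower at an FDR of 0.05, and limma-voom 1 in each direction. Of 9 liver X and retinoid receptors tested, Rara was the one that passed, and their median was -0.00.

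Tsc2 siRNA was measured against the same 3 control libraries, so that its values against the controls are given beside those of Chd8 siRNA only as values. Set directly against Tsc2 siRNA, 36 genes (0.221%) differed with Chd8 siRNA, and 10 of the 87 were among them in the same direction, both comparisons having the Chd8 siRNA libraries in common. These 10 were Chmp2a, Gabpa, Hpgd, Serpinb6b, Mxd1 and Crlf2, which were higher, and Chd8, Pprc1, Gm47924 and 1 Nnt gene model, which were lower. Hpgd, the enzyme that inactivates prostaglandins, was 31.4, 32.7 and 29.1 CPM in the controls and 46.3, 51.7 and 59.0 CPM with Chd8 siRNA (0.75, FDR 0.00689). Mxd1, an antagonist of MYC, was 375, 281 and 141 CPM against 505, 409 and 309 CPM (0.70, FDR 0.0103). Pprc1, a coactivator related to PGC-1 that acts on mitochondrial biogenesis, was 48.1, 41.1 and 42.6 CPM against 38.0, 22.9 and 27.4 CPM (-0.59, FDR 0.0443). Its call was kept in 1 of the 6 fits without one library. Neither DESeq2 nor limma-voom called Pprc1, and limma-voom did not call Gm47924 and the Nnt gene model, for which DESeq2 gave no adjusted p. Hpgd, Mxd1, Crlf2 and Pprc1 are outside the naming rule and were picked because they are in this overlap.

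A group that leaned downwards was that of the antioxidant genes controlled by NRF2 (Nfe2l2), the factor that is released from KEAP1 under oxidative stress and binds antioxidant response elements. Of 36 target genes tested, 4 fell past the fold threshold and 8 at an FDR of 0.05, and 1 rose. The median log2 fold change of the 36 was -0.25, against -0.0191 over all genes tested, and at numbers 1, 2 and 3 it was -0.17, -0.29 and -0.37. Of the targets, 19 (52.8%) were lower and 2 (5.56%) higher at all 3 numbers, and among the 29 of at least 10 CPM 62.1% were lower. By DESeq2, 12 of the 36 were lower and 1 higher at an FDR of 0.05, against 186 lower and 379 higher of all 16273 genes. With Tsc2 siRNA the median of the same genes was -0.26 against the shared controls.

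The NRF2 targets that fell belong to several arms of redox defence. Slc7a11, the cystine importer that feeds glutathione synthesis, was 182, 252 and 511 CPM in the controls and 107, 147 and 253 CPM with Chd8 siRNA (-0.86 ± 0.10, FDR 0.00173). Srxn1, the reductase that repairs oxidised peroxiredoxins, was 122, 87.8 and 142 CPM against 81.5, 53.3 and 77.0 CPM (-0.73 ± 0.09, FDR 0.00173). The Srxn1 groups did not overlap, whereas those of Slc7a11 did, and it was lower at each number. Gclc, the catalytic subunit of the first enzyme of glutathione synthesis, was 17.5, 25.7 and 39.5 CPM against 10.7, 14.5 and 27.6 CPM (-0.68, FDR 0.0265). Gstm1, a glutathione transferase, was 20.1, 22.4 and 43.5 CPM against 14.5, 15.9 and 23.7 CPM (-0.62, FDR 0.0336). The call of Gclc was lost without any one of the 6 libraries, and that of Gstm1 held in 1 of the 6 fits.

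With smaller changes, Hmox1, which degrades heme, was 552, 530 and 631 CPM in the controls and 421, 416 and 434 CPM with Chd8 siRNA (-0.43, FDR 0.0157). Txnrd1, the thioredoxin reductase, was 462, 503 and 667 CPM against 386, 382 and 474 CPM (-0.38, FDR 0.0281). Abcc1, an exporter of glutathione conjugates, fell by 0.34 (FDR 0.0487), and Pgd, an enzyme of the pentose phosphate pathway that yields NADPH, by 0.34 (FDR 0.0499). In Hmox1, Abcc1 and Pgd every knockdown library was below every control. The target that rose was Cd36, a scavenger receptor that is also controlled by PPAR gamma, with 227, 353 and 251 CPM against 287, 433 and 392 CPM (0.43, FDR 0.0293). The 6 regulators of the pathway, Nfe2l2 and Keap1 among them, did not pass the test and had a median of -0.07, with 1 of them at an unadjusted p under 0.05 upwards and 2 downwards. The ferritin chains Fth1 and Ftl1, which are abundant targets, were at 0.10 (FDR 0.403) and 0.07 (FDR 0.659).

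**Figure D4:**
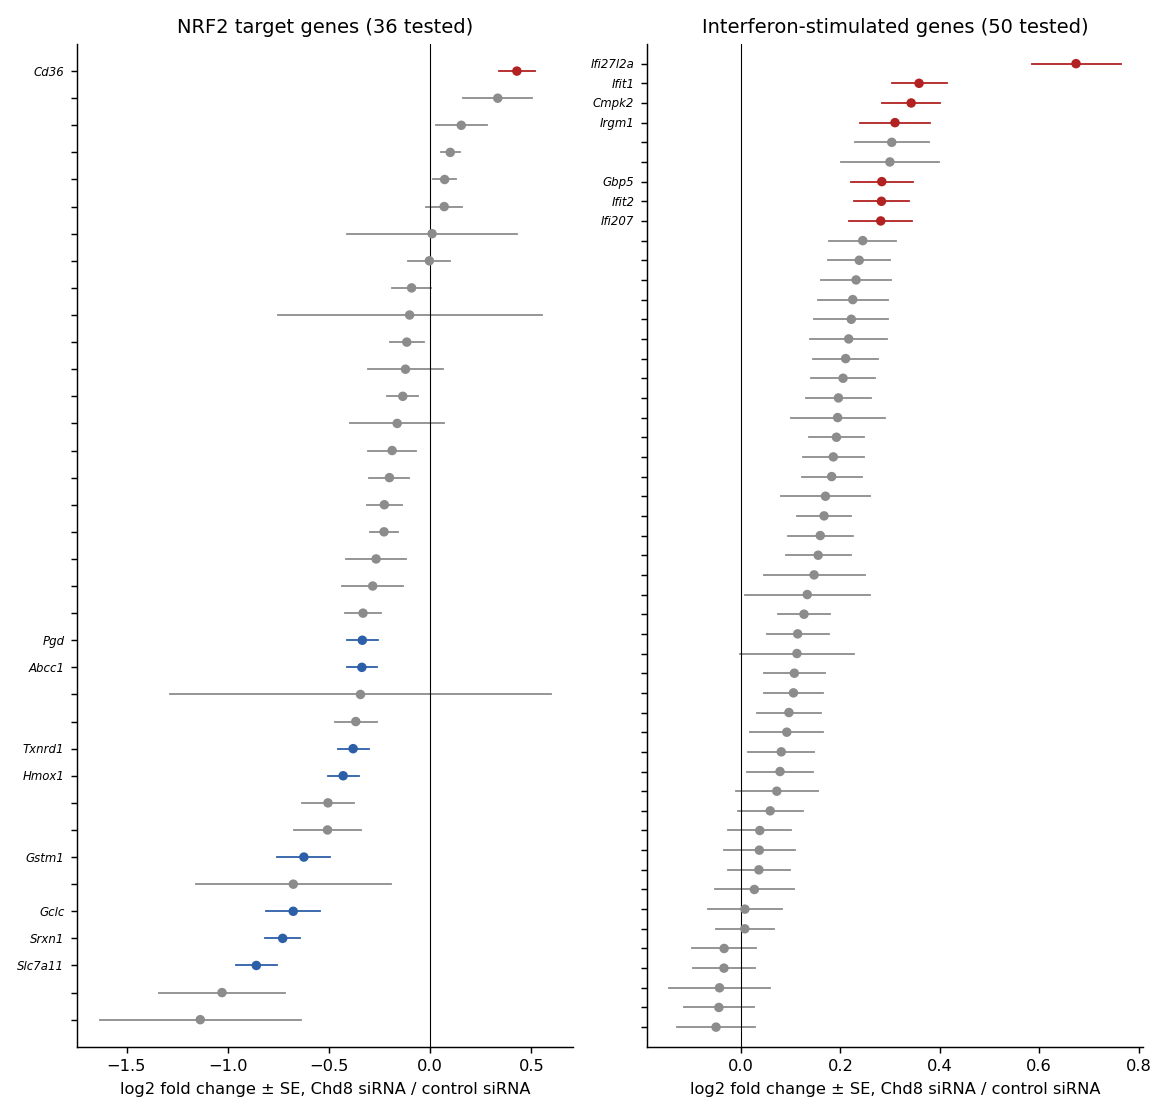
Log2 fold change with its SE (x axis) for the 36 NRF2 targets and the 50 interferon-stimulated genes tested (y axis), with genes at an FDR of 0.05 named and in red where higher or in blue where lower, and all others in grey. On the left 8 genes are blue and 1 red, and on the right 7 are red and none blue.

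Promoter sequences were searched for the antioxidant response element, spelled TGACNNNGC, on both strands of the 250 bases before each RefSeq start on GRCm38.p6. Of the 36 NRF2 targets 29 were in the RefSeq table, and 8 of these (27.6%) held a match in at least 1 window, against 13.4% of the 10717 tested genes in the table. The median log2 fold change was -0.34 for the 8 genes with a match and -0.14 for the 21 without. Srxn1, Slc7a11, Gstm1 and Pgd held none in these windows. Among the targets that fell, 1 of the 3 Txnrd1 windows held a match, which begins 92 bases before the start and is shown because Txnrd1 is the only target that fell, of those in the table, with these letters (chr10:82858956-82859205, plus strand, match in capitals).
Txnrd1: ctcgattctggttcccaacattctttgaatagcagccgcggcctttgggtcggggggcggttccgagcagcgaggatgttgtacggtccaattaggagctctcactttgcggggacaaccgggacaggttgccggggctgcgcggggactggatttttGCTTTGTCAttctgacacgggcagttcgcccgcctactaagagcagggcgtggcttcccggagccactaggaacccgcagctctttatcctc

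Interferon-stimulated genes moved the other way. These genes are switched on when type I interferon activates its receptor, and they were already very abundant in the controls, where the 50 genes summed to 43002, 57814 and 47954 CPM. With Chd8 siRNA the sums were 49472, 63193 and 55793 CPM, higher at each number. At an FDR of 0.05, 7 of the 50 genes rose and none fell, although 1 of them passed the fold threshold. At all 3 numbers 35 genes (70%) were higher and 0 lower, and the median was 0.16 (0.20, 0.13 and 0.13 at numbers 1, 2 and 3). The median level of the list was 528 CPM, and of all genes of 300 CPM and over 52.2% were higher and 10.6% lower at all 3 numbers, with a median of 0.09. At an unadjusted p under 0.05 there were 25 genes higher and 0 lower, and DESeq2 and limma-voom found 14 and 12 higher and 0 lower at an FDR of 0.05. The median with Tsc2 siRNA was 0.09.

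The gene that rose most in this group was Ifi27l2a, a small mitochondrial protein induced by interferon, with 48.9, 57.8 and 38.6 CPM in the controls and 83.2, 93.5 and 56.8 CPM with Chd8 siRNA (0.67 ± 0.09, FDR 0.00343). It was higher with Tsc2 siRNA too (0.85). Ifit1, which binds viral RNA without 2'-O methylation at its cap, was 1488, 1669 and 1586 CPM against 1828, 2165 and 2095 CPM, with no overlap (0.36 ± 0.06, FDR 0.00777). Cmpk2, a mitochondrial nucleotide kinase, was 3369, 4546 and 3347 CPM against 4041, 5433 and 4749 CPM (0.34, FDR 0.014). Ifit1, Cmpk2 and the immunity GTPase Irgm1 also exceeded their levels with Tsc2 siRNA, at FDRs of 0.039, 0.029 and 0.045. The rest were Ifit2 (0.28, FDR 0.0222), the guanylate-binding protein Gbp5 (0.28, FDR 0.0446), Irgm1 (0.31, FDR 0.0499) and the DNA-binding protein Ifi207 (0.28, FDR 0.0499), each higher at all 3 numbers.

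Interferon beta itself rose. Ifnb1, the cytokine that starts this response, was 6.75, 9.36 and 15.4 CPM in the controls and 13.6, 30.6 and 31.9 CPM with Chd8 siRNA (1.25 ± 0.24, FDR 0.0218). Each knockdown library was above the control of its number, and the groups overlapped. The call held in 2 of the 6 fits without one library, and Tsc2 siRNA gave 0.97. Ifit1bl1, a relative of Ifit1, is not in the list but was among the 87 genes, with a log2 fold change of 0.64 (FDR 0.00343), and was picked after its values were seen.

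The interferon-stimulated response element, spelled GAAA, then any 2 bases, then GAAA, and searched on both strands, was present in the 250 bases before the start of 20 of the 38 list genes in the RefSeq table (52.6%), against 3.57% of the tested genes. The 20 genes with a match had a median log2 fold change of 0.17 and the 18 without one 0.15. The windows of Ifit1, Gbp5, Irgm1 and Ifi207 are shown because these are the genes with a match among the 7 that rose, with the matches in capitals. Those of Ifit1 begin 104 and 85 bases before the start, that of Gbp5 165 bases, those of Irgm1, which overlap, 30 and 24 bases, and that of Ifi207 41 bases. The windows are chr19:34640639-34640888 (plus strand), chr3:142496684-142496933 (plus), chr11:48871421-48871670 (minus) and chr1:173741810-173742059 (minus).
Ifit1: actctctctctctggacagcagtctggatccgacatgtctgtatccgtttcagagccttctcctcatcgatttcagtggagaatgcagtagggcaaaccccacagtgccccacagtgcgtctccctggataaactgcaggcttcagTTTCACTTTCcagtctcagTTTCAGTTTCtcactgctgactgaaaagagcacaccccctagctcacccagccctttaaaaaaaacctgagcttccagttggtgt
Gbp5: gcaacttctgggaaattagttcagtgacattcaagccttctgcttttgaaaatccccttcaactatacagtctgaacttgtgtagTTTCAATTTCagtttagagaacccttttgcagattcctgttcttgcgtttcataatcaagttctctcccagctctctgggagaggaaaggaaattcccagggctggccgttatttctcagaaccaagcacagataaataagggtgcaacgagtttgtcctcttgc
Irgm1: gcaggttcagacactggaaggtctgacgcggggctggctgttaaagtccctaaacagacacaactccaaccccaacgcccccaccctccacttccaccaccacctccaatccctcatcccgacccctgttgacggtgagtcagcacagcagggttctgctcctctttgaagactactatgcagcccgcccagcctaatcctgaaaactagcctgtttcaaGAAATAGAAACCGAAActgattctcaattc
Ifi207: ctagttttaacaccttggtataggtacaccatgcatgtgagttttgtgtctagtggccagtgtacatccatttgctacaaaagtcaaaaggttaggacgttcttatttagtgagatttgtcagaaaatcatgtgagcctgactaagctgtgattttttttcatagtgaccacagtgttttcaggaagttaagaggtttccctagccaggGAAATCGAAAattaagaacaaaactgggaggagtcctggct

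Antigen presentation on MHC class I, which is induced by interferon as well, leaned upwards without a gene past the threshold. Of 23 class I genes, 18 (78.3%) were higher and 1 lower at all 3 numbers, with a median of 0.17 and 9 genes at an unadjusted p under 0.05, all higher. The median level of these genes was 260 CPM, and of all genes between 100 and 300 CPM 34.6% were higher at all 3 numbers, with a median of 0.05. DESeq2 found 2 genes and limma-voom 1 at an FDR of 0.05. Tap1, the peptide transporter, was 391, 592 and 416 CPM in the controls and 442, 691 and 554 CPM with Chd8 siRNA (0.27, FDR 0.081). The class II genes had a median of 0.04, and Cd74, the invariant chain, was 102, 63.6 and 76.3 CPM against 90.0, 38.4 and 29.2 CPM (-0.73, FDR 0.0601).

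Chemokines and their receptors changed in both directions. Of 33 genes, 6 rose and 2 fell at an FDR of 0.05, and 3 and 2 of them passed the fold threshold. Unadjusted, 10 (30.3%) were higher and 5 (15.2%) lower at p under 0.05. The ligands that rose attract monocytes and T cells, except that Cxcl11 is annotated as a polymorphic pseudogene. Ccl6 was 39.4, 38.5 and 21.0 CPM in the controls and 61.0, 58.3 and 36.1 CPM with Chd8 siRNA (0.67, FDR 0.014), Cxcl11 rose by 0.66 (FDR 0.0157), Ccl7 by 0.54 (FDR 0.00711), Ccl9 by 0.34 (FDR 0.0149) and Cxcl10 by 0.33 (FDR 0.0173). Those that fell attract neutrophils through CXCR2. Cxcl1 was 72.1, 174 and 557 CPM against 45.0, 108 and 252 CPM (-0.84, FDR 0.0189), and Cxcl3 was 31.3, 60.2 and 134 CPM against 13.3, 42.1 and 52.6 CPM (-1.06, FDR 0.00849). The controls differed more among themselves in Cxcl1 and Cxcl3 than the siRNAs did at any number.

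Inflammatory cytokines and effectors went both ways, with a median of -0.02 over 37 genes, of which Ifnb1 and Il15 rose at an FDR of 0.05. At an unadjusted p under 0.05, 6 were higher and 9 lower (24.3%, against 6.12% of all genes), and DESeq2 and limma-voom each found 3 lower at an FDR of 0.05. The 11 effectors had a median of -0.16, with 5 lower and 0 higher at all 3 numbers and 6 lower and 1 higher at an unadjusted p under 0.05. All 11 were of at least 10 CPM, and of all genes of that level 18% were lower and 27.8% higher at all 3 numbers. Il15, which sustains natural killer cells, was 140, 302 and 219 CPM in the controls and 188, 342 and 314 CPM with Chd8 siRNA (0.38, FDR 0.0293). Il6 was 141, 682 and 649 CPM against 124, 509 and 546 CPM (-0.28, FDR 0.105), and Csf3, the granulocyte growth factor, was lower by 0.38 without passing the test (FDR 0.0601). Among 45 genes of LPS sensing and NF-kB, 1 rose at an FDR of 0.05 by edgeR. DESeq2 found 5 higher and 0 lower, limma-voom 1 higher, and 10 (22.2%) were higher and 1 lower at an unadjusted p under 0.05. The gene called by edgeR was Nfkbib, an inhibitor of NF-kB, with 183, 275 and 262 CPM against 235, 389 and 337 CPM (0.41, FDR 0.014). The 13 inhibitors of the pathway had a median of 0.21, with 8 (61.5%) higher and 1 lower at all 3 numbers. Of them, 6 (46.2%) were higher at an unadjusted p under 0.05, against 6.73% of all genes. Their median level was 274 CPM, and of all genes between 100 and 300 CPM 34.6% were higher and 16.6% lower at all 3 numbers. The 15 receptors had a median of 0.05 and the 17 kinases and NF-kB subunits of 0.04. Those with at least 10 CPM had lower median levels, of 39.6 and 66.6 CPM.

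**Figure D5:**
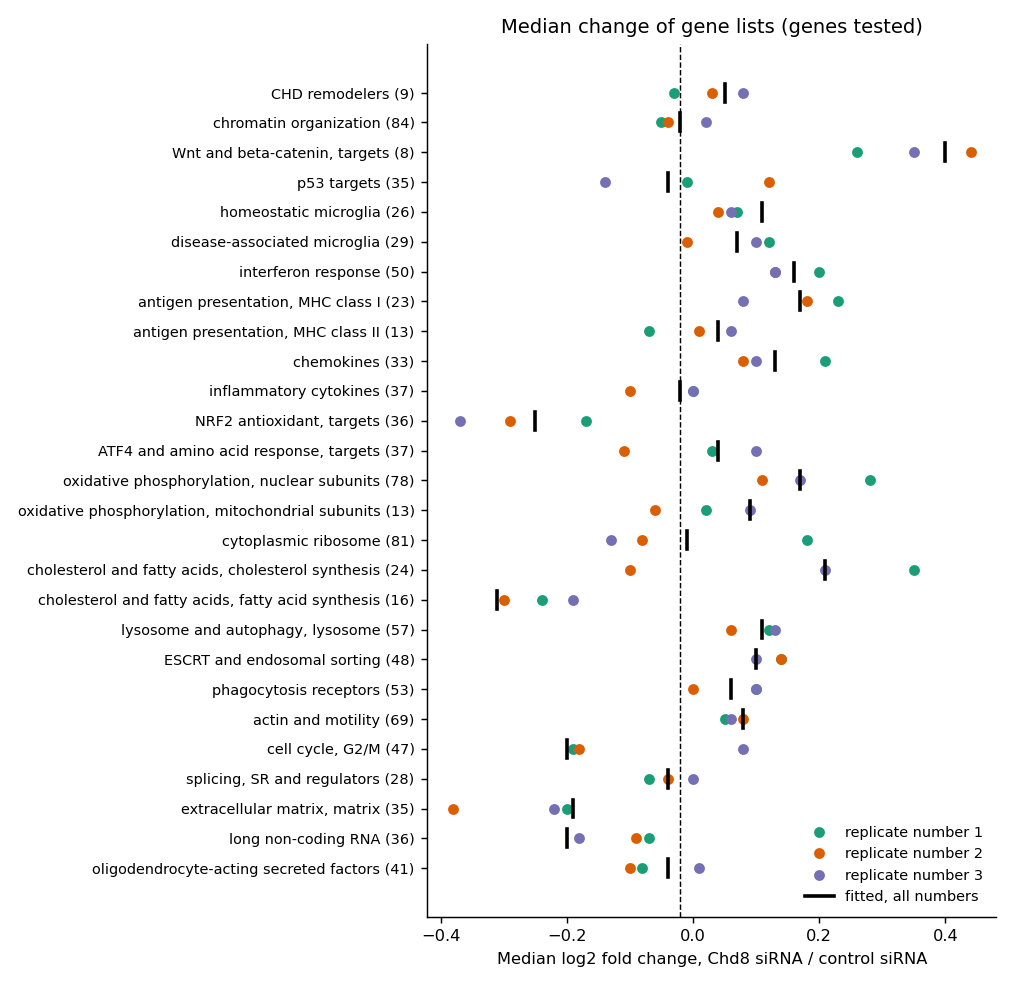
Median log2 fold change (x axis) of the tested genes of 27 lists (y axis, number of genes in brackets), as coloured points for each replicate number and a black bar for the fit over all numbers, with the median of all genes tested as a dashed line. The points of all 3 numbers lie left of the line for the NRF2 targets and right of it for the interferon genes, the class I genes and the nuclear subunits of oxidative phosphorylation.

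Oxidative phosphorylation, the respiratory chain and ATP synthase of mitochondria, leaned upwards in its nuclear genes. Of 78 nuclear subunits, 38 (48.7%) were higher and 0 lower at all 3 numbers, and of the 60 with at least 10 CPM 45% were higher. Their median was 0.17 (0.28, 0.11 and 0.17 at numbers 1, 2 and 3) against 0.09 with Tsc2 siRNA. None passed an FDR of 0.05 by edgeR, 19 (24.4%) were higher and 0 lower at an unadjusted p under 0.05, against 6.73% of all genes higher, and DESeq2 found 4 and limma-voom 1 higher, of 379 and 186 among all 16273 genes. Cox7c, a subunit of complex IV, was 15.9, 24.4 and 20.1 CPM in the controls and 22.3, 34.6 and 27.4 CPM with Chd8 siRNA (0.48, FDR 0.12), and Sdhc of complex II was 21.8, 22.5 and 21.8 CPM against 29.6, 33.5 and 27.8 CPM, with no overlap (0.46, FDR 0.0876). The 13 subunits encoded in mitochondrial DNA had a median of 0.09. Mitochondrial ribosomal proteins had a median of 0.09 over 77 genes, of which 6 (7.79%) were higher and 1 lower at an unadjusted p under 0.05, near the 6.73% of all genes that were higher.

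The 81 cytoplasmic ribosomal proteins had a median of -0.01, with 0.18 at number 1 and -0.08 and -0.13 at numbers 2 and 3, so that the sign depended on the replicate number. At an unadjusted p under 0.05, 2 of them were higher and 4 lower, among the latter Rps4x with 120, 148 and 135 CPM against 111, 101 and 91.4 CPM (-0.41, FDR 0.0535). Of 30 genes of the signal recognition particle and the ER translocon, Srp14 rose past the fold threshold and Bag6, which guides tail-anchored proteins, at the FDR alone, with 141, 162 and 136 CPM against 164, 231 and 215 CPM (0.46, FDR 0.0281). In the list 5 genes (16.7%) were higher and 1 lower at an unadjusted p under 0.05, against 6.73% and 6.12% of all genes. Bag6 also exceeded its level with Tsc2 siRNA (FDR 0.021). In contrast Srp72, another subunit of the particle, was lower without overlap (-0.31, FDR 0.158). Chaperones and ER stress genes had a median of 0.08 over 57 genes, in which Ahsa1 was the gene called by edgeR. Of these, 10 (17.5%) were higher and 2 lower at an unadjusted p under 0.05, and DESeq2 found 3 higher and 1 lower at an FDR of 0.05.

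The amino acid response under ATF4 gave calls in both directions. Of 37 targets tested, Slc7a11, which is also an NRF2 target, fell and Wars, the tryptophanyl-tRNA synthetase, rose. Wars was 44.1, 95.7 and 64.8 CPM in the controls and 78.9, 125 and 103 CPM with Chd8 siRNA (0.62, FDR 0.0279), and it is induced by interferon gamma as well. Its groups overlapped, and its call was kept in 0 of the 6 fits without one library. The median of the targets was 0.04, with 4 higher and 2 lower at an unadjusted p under 0.05, and DESeq2 found 3 higher and 2 lower at an FDR of 0.05. The amino acid transporter Slc38a2 passed the FDR alone, with 130, 81.8 and 126 CPM against 103, 60.8 and 83.2 CPM (-0.45, FDR 0.05).

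Of 48 genes of endosomal sorting, Chmp2a was the one that passed an FDR of 0.05 by edgeR, and DESeq2 found 9 and limma-voom 4 higher. At an unadjusted p under 0.05, 12 (25%) were higher and 0 lower, against 6.73% and 6.12% of all genes. Of 15 ESCRT-III genes tested, 11 (73.3%) were higher and 1 lower at all 3 numbers, with a median of 0.20, and DESeq2 found 4 at an FDR of 0.05. Of the 13 with at least 10 CPM, 76.9% were higher, against 27.8% of all genes of that level. Chmp1a was 18.6, 22.8 and 18.9 CPM in the controls and 29.6, 32.2 and 24.1 CPM with Chd8 siRNA, without overlap (0.50, FDR 0.0679), and Chmp1b was 15.8, 26.4 and 16 CPM against 25.1, 32.4 and 23.6 CPM (0.51, FDR 0.0817). Retromer and Rab genes had a median of 0.14 with 11 of 19 higher and 0 lower, and the complexes ESCRT-0 to II a median of 0.02 with 3 of 14 (21.4%) higher. Of the 16 retromer and Rab genes with at least 10 CPM, 68.8% were higher. Lysosomal genes had a median of 0.11 over 57 genes, of which 24 were higher and 4 lower at all 3 numbers and none passed an FDR of 0.05 by edgeR (12 higher and 1 lower at an unadjusted p under 0.05, DESeq2 3 higher). Of the 50 with at least 10 CPM, whose median level was 111 CPM, 44% were higher and 6% lower at all 3 numbers. Of all genes between 100 and 300 CPM, 34.6% were higher and 16.6% lower. The median of the lysosomal genes with Tsc2 siRNA was -0.02.

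Genes of microglial states had 1 edgeR call in each list. Of 26 genes of homeostatic microglia, Entpd1 (CD39), which removes extracellular ATP, rose from 8.64, 13.7 and 4.03 CPM to 14.6, 21.0 and 12.2 CPM (0.94, FDR 0.0493), but the call was lost in each fit without one library. Cx3cr1, the fractalkine receptor, was 10.7, 13.4 and 7.64 CPM against 7.2, 10.3 and 6.25 CPM (-0.42, FDR 0.32). In this list 5 genes (19.2%) were higher and 3 (11.5%) lower at an unadjusted p under 0.05, against 6.73% and 6.12% of all genes, and DESeq2 found 3 higher. Of 29 genes of disease-associated microglia, Ccl6 was the gene that rose by edgeR, 7 (24.1%) were higher and 2 lower at an unadjusted p under 0.05, and DESeq2 found 3 higher. Spp1, osteopontin, was 4419, 1690 and 2531 CPM in the controls and 3285, 1359 and 2393 CPM with Chd8 siRNA (-0.27, FDR 0.177). The microglial marker list itself had a median of 0.19 over 17 genes, with 12 higher and 2 lower at all 3 numbers. Among the 15 of at least 10 CPM, whose median level was 464 CPM, 73.3% were higher and 6.67% lower. Of all genes of 300 CPM and over, 52.2% were higher and 10.6% lower, with a median of 0.09. None of the 17 markers passed an FDR of 0.05 by edgeR, and 8 (47.1%) were higher and 2 lower at an unadjusted p under 0.05. DESeq2 found 6 and limma-voom 2 of them higher, so the abundant genes of this cell type leaned upwards as the lists above did. Its part in them was not tested.

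Of 53 phagocytosis receptors and opsonins, Cd36 rose and C3, the central complement component, fell at an FDR of 0.05 by edgeR. DESeq2 found 6 higher and 1 lower and limma-voom 3 and 1, and 9 (17%) were higher and 5 (9.43%) lower at an unadjusted p under 0.05, against 6.73% and 6.12% of all genes. C3 was 1069, 2212 and 1902 CPM in the controls and 888, 1462 and 1414 CPM with Chd8 siRNA (-0.43, FDR 0.0231). Trem2, the lipid receptor of microglia, was 61.8, 141 and 109 CPM against 80.9, 138 and 107 CPM (FDR 0.756). Of 69 genes of actin and motility, Fscn1, which bundles actin, rose by 0.47 (FDR 0.0173) and Actb by 0.23 (FDR 0.0459). Of the 69, 29 (42%) were higher and 9 (13%) lower at all 3 numbers. Of the 65 with at least 10 CPM, 44.6% were higher and 13.8% lower, against 27.8% and 18% of all genes of that level. The median level of the 65 was 230 CPM, and of all genes between 100 and 300 CPM 34.6% were higher and 16.6% lower. Unadjusted, 10 (14.5%) were higher and 2 lower at p under 0.05, and DESeq2 found 4 higher and 1 lower at an FDR of 0.05.

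Secreted factors that act on oligodendrocytes included 2 genes that fell of 41 tested. Pdgfb, a growth factor of the PDGF family, was 11.5, 36.0 and 36.5 CPM in the controls and 5.63, 25.3 and 18.5 CPM with Chd8 siRNA (-0.83 ± 0.14, FDR 0.014), and Cxcl1 is described above. The call of Pdgfb held in 3 of the 6 fits without one library. Igf1, which supports oligodendrocyte development and is named outside the rule, was 340, 490 and 404 CPM against 359, 513 and 409 CPM (0.05 ± 0.07, FDR 0.815), so it was not lower in any knockdown library than in the control of its number. The median of the list was -0.04, with 4 genes (9.76%) higher and 12 (29.3%) lower at all 3 numbers, against 17.7% and 18.3% of all genes. Unadjusted, 1 was higher and 7 (17.1%) lower at p under 0.05, against 6.12% of all genes lower, and DESeq2 found 3 and limma-voom 4 lower at an FDR of 0.05.

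Cholesterol synthesis genes had a median of 0.21 over 24 genes, but of 0.35, -0.10 and 0.21 at numbers 1, 2 and 3. Fatty acid synthesis genes had a median of -0.31 over 16 genes, most of them at low levels, and of 0.11 over the 7 with at least 10 CPM. At an unadjusted p under 0.05, 2 of the 40 genes were higher and 3 lower, and DESeq2 found 1 in each direction at an FDR of 0.05. Scd2, a desaturase, was 4.11, 9.67 and 22.8 CPM in the controls and 1.71, 7.59 and 10 CPM with Chd8 siRNA (-0.91, FDR 0.121). Of 27 genes of liver X and retinoid receptors and their targets, Cd5l rose and Rara fell by all 3 tools. Of the 27, 7 (25.9%) were lower and 2 higher at an unadjusted p under 0.05, against 6.12% and 6.73% of all genes, and 8 were lower and 3 higher at all 3 numbers. Abcg1, a cholesterol exporter under the same receptors as Cd5l, was 201, 127 and 87.0 CPM against 201, 80.6 and 65.8 CPM (-0.35, FDR 0.166).

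Of 71 genes of the extracellular matrix, 3 fell past the fold threshold and none rose by edgeR, and DESeq2 found 7 lower and 1 higher and limma-voom 5 lower at an FDR of 0.05. Unadjusted, 15 (21.1%) were lower and 4 higher at p under 0.05. At all 3 numbers 19 (26.8%) were lower and 7 (9.86%) higher, against 18.3% and 17.7% of all genes tested. The median was -0.15, and -0.05 over the 32 genes of at least 10 CPM. Col1a1, the alpha 1 chain of type I collagen, was 2.56, 12.8 and 44.0 CPM in the controls and 1.98, 4.46 and 13.2 CPM with Chd8 siRNA (-1.31 ± 0.25, FDR 0.0218). Cemip, which degrades hyaluronan, was 4.71, 29.5 and 43.6 CPM against 1.81, 7.27 and 29.0 CPM (-1.27, FDR 0.0188). A2m, a protease inhibitor of astrocytes and plasma, was 4.11, 5.36 and 16.7 CPM against 2.11, 2.10 and 4.57 CPM (-1.40, FDR 0.0174). All 3 were lower with Tsc2 siRNA as well, by 1.03 to 1.31. The groups of all 3 genes overlapped, and each kept its call in 2 of the 6 fits without one library.

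Markers of fibroblasts and mural cells that were tested, Col1a1 among them, summed to 22.9, 67 and 187 CPM in the controls and to 21.2, 49.1 and 173 CPM with Chd8 siRNA, and their median was -0.60 over 9 genes. Astrocyte markers summed to 20.3, 35.3 and 141 CPM against 17.6, 30.7 and 75.3 CPM, with a median of -0.41 over 12 genes. Endothelial markers summed to 185, 196 and 240 CPM against 168, 161 and 175 CPM, with a median of -0.32 over 6 genes. All 3 sums were lower at each number and were small beside those of microglia. Most of the endothelial sum was Flt1, a VEGF receptor, which fell from 136, 140 and 186 CPM to 110, 97.1 and 127 CPM without overlap (-0.46, FDR 0.017), and Kdr, another VEGF receptor, with 33.4, 43.9 and 41.7 CPM against 43.2, 50.6 and 38.6 CPM (FDR 0.606). The defining endothelial genes Cldn5 and Tek did not exceed 3 counts in any library. Of the neutrophil markers, 5 of 11 (Ly6g, Ngp and Elane among them) were at most at 3 counts, and Csf3r, which monocytes also express, made up most of their sum with 276, 83.6 and 72 CPM against 271, 69.4 and 56.9 CPM. The part of other cells in the change of the matrix genes was not tested.

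Of 36 long non-coding RNAs tested, 2 fell and none rose at an FDR of 0.05 by each tool, and 7 (19.4%) were lower and 1 higher at an unadjusted p under 0.05. The median was -0.20, and -0.09 over the 16 of at least 10 CPM, and genes of low level were lower in general. Neat1, the RNA around which nuclear paraspeckles form, was 420, 329 and 226 CPM in the controls and 269, 170 and 142 CPM with Chd8 siRNA (-0.76 ± 0.08, FDR 0.0012), lower at each number with overlapping groups. Kcnq1ot1, an imprinted RNA that silences its neighbours, was 23.7, 24.1 and 36.1 CPM against 13.2, 13.3 and 19.4 CPM, without overlap (-0.87 ± 0.12, FDR 0.00472). Neat1 was lower with Tsc2 siRNA too (-0.67). Gas5, the host of small nucleolar RNAs, was at -0.64 (FDR 0.132) without overlap. Splicing regulators of the SR group, many of which are found in nuclear speckles, were lower at all 3 numbers in 10 of 28 genes and higher in 1, with a median of -0.04 and 2 genes in each direction at an unadjusted p under 0.05. All 28 were of at least 10 CPM, and of all genes of that level 18% were lower and 27.8% higher at all 3 numbers.

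None of 84 genes of chromatin organization passed an FDR of 0.05 by edgeR, 6 were higher and 9 lower at an unadjusted p under 0.05, and DESeq2 found 5 higher and 3 lower. Their median was -0.02, and it was 0.08 for SWI/SNF, 0.00 for Trithorax and Polycomb, and -0.03 for acetylation. Srcap, the remodeler that exchanges histone H2A.Z, was 218, 178 and 201 CPM in the controls and 171, 141 and 169 CPM with Chd8 siRNA, without overlap (-0.31, FDR 0.0621). Jarid2, a cofactor of Polycomb, was at 0.53 (FDR 0.0519). Beyond Chd8 none of the 60 autism risk genes tested passed by edgeR. With Chd8 counted, DESeq2 found 3 lower and limma-voom 2 at an FDR of 0.05, and 3 were higher and 4 lower at an unadjusted p under 0.05.

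Beta-catenin targets, 8 tested of 16, had a median of 0.40, with 0.26, 0.44 and 0.35 at numbers 1, 2 and 3, but none passed an FDR of 0.05 by edgeR, DESeq2 or limma-voom. At all 3 numbers 4 (50%) were higher and 0 lower, against 17.7% and 18.3% of all genes, and 2 (25%) were higher at an unadjusted p under 0.05. Ccnd1, cyclin D1, was 80.6, 140 and 108 CPM in the controls and 96.0, 165 and 164 CPM with Chd8 siRNA (0.37, FDR 0.249), and Bambi was at 0.51 (FDR 0.269). The median of the same genes with Tsc2 siRNA was -0.04. Of 35 p53 genes, Gdf15, a stress cytokine, fell from 16.6, 38.2 and 54.6 CPM to 11.2, 21.1 and 24.6 CPM (-0.87, FDR 0.0163). It is also induced by ATF4, and it was the only gene of this list that passed by edgeR. DESeq2 found 2 higher and 1 lower at an FDR of 0.05, and limma-voom 1 in each direction. Cdkn1a, the p53 target that halts the cell cycle, was at 0.25 (FDR 0.0962), and the median was -0.04.

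None of 104 cell cycle genes passed an FDR of 0.05 by edgeR, with 5 higher and 6 lower at an unadjusted p under 0.05 and 1 in each direction by DESeq2. Uhrf1, which maintains DNA methylation at replication, was at -1.20 (FDR 0.0888) without overlap. The G2/M genes had a median of -0.20, with -0.19, -0.18 and 0.08 at numbers 1, 2 and 3, and Mki67 was 34.5, 46.7 and 84.4 CPM in the controls and 30.1, 40.9 and 52.0 CPM with Chd8 siRNA (-0.38, FDR 0.285). Of 37 genes of mTOR and insulin signalling, Rps6ka2, a kinase downstream of ERK, fell by 0.59 (FDR 0.0286), and 5 (13.5%) were lower and 1 higher at an unadjusted p under 0.05. Tsc2 was 40.8, 39.9 and 38.9 CPM against 38.6, 38.6 and 40.1 CPM. Glycolysis and hypoxia genes had medians of -0.08 and 0.16, with 1 of 41 genes higher and 2 lower at an unadjusted p under 0.05 and 0 at an FDR of 0.05 by all 3 tools. Proteasome genes had a median of 0.08 over 38 genes, of which 8 (21.1%) were higher and 1 lower at an unadjusted p under 0.05.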

How the data were processed

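RNA-seq of cultured mouse microglia was analysed, with 3 libraries for each of the siRNAs (control, Chd8 and Tsc2), grouped by the sample titles. The deposited values are estimated counts per transcript, not scaled, which the authors made with Salmon (0.14.1, mm10, per the submitters' processing notes), without pooling replicates. The annotation release is not given in the sources used here. The sample labels name a SMARTer stranded kit and the methods an Illumina total RNA kit. Salmon divides reads among similar transcripts, so values of near-identical genes are uncertain.

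Of 140948 transcripts, 139852 were assigned to GENCODE mouse genes (GRCm38) by identifier. The remaining 1096, with 0.27% of all counts, were left out, and no column was unused (0). Gene sums were rounded and tested with edgeR (4.0.16, R 4.3.3) by its quasi-likelihood test after filterByExpr and TMM scaling, with siRNA and replicate number as terms over 9 libraries. A gene was called at a Benjamini-Hochberg FDR under 0.05 with a fold over 1.5. Log2 fold changes are those of the fit, with edgeR's default prior count. Differences at single replicate numbers and the correlations use log2 CPM with a prior count of 2. DESeq2 (1.42.0), limma-voom (3.58.1), other scalings, filters, fits without the block and left-out libraries were alternatives. The Chd8 level was also compared by exact permutation (two-sided) after adding 0.5 to its CPM. Libraries held 16913448 to 33213801 counts, so 3 counts were 0.0903 to 0.177 CPM, for counting error only.

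The replicate numbers come from the titles. Between control and Chd8 siRNA libraries of the same number, and likewise with Tsc2 siRNA, every correlation of deviations was at least 0.244, which was taken as pairing. On simulated counts for the comparison of Chd8 siRNA with control siRNA (15532 genes), the blocked fit recovered 65.7% of genes changed 1.5-fold, 92.5% changed 2-fold and 100% changed 4-fold, with 18 false calls among 190, a share above the FDR of 0.05 that was set.

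The gene lists, the comparison and the tests were chosen with earlier results of these data known. Genes were named by rule: Chd8, the 12 called genes each way with the largest change of one sign at all 3 numbers, leaving out pseudogenes, and up to 4 members of each list by call, FDR and p, or its defining genes. Genes outside it are marked where it matters. Promoter windows are from RefSeq on GRCm38.p6. Some genes that the lists or the rule hold are not reported here.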

Additional observations from a re-analysis of the deposited data

How the results depend on the processing

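Against 87 genes called and 169 at an FDR of 0.05 at any fold, edgeR without a count filter gave 228 and 580, DESeq2 159 and 565, limma-voom 304 at any fold, and dropping the fold threshold 169. The fits with no replicate block gave 0 of either kind, over 9 libraries (622 genes at an unadjusted p under 0.05) and over the 6 (457), and 0 genes for Chd8 siRNA against Tsc2 siRNA, with Chd8 at -0.86 in both fits and no longer called. In the simulated data the fit without the replicate block made 73 calls, 0 of them false, and the blocked fit 190, of which 18 were false, a share above the FDR of 0.05 that was set. Transcripts that were not summed gave 0 calls of 41633 by edgeR, with 2252 at an unadjusted p under 0.05. Leaving out libraries or numbers gave 8 to 105 called genes, 8 to 204 at any fold, and log2 fold changes of Chd8 from -1.21 to -0.73. Without number 2 there were 8 calls, and Chd8 was at -0.84 (FDR 0.207). Among genes of at least 10 CPM, a limit chosen after seeing the data, 2817 had one sign at all 3 numbers. The other alternatives for these counts stayed within 1.5 times. Over 4351 further values of named genes and lists, 897 were no longer past the threshold, 159 newly past it, 66 list medians moved by more than their spread and 0 were reversed past the threshold. The median of glycolysis and hypoxia genes turned from 0.01 to -0.01 with upper-quartile factors, and no other list median changed sign with another scaling. Protein-coding genes alone give no value for the long non-coding RNAs. The cause of these differences was not tested.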
